A study of Mus musculus with 11 samples.

Results

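Carboxylesterases are serine hydrolases of the endoplasmic reticulum lumen that cleave ester bonds in stored lipids, drugs and other foreign compounds. In mouse adipose tissue the best known member is Ces1d, also named triacylglycerol hydrolase or TGH (older symbol Ces3), which takes part in basal lipolysis, and Ces1f is known as TGH-2. The family examined here comprised the genes whose symbol is Ces followed by a digit, which were 5 of the 15453 genes measured: Ces1d, Ces1f, Ces1g, Ces2g and Ces3a. The family was chosen from the difference of Ces1d and Ces1f between the genotypes in these same mice, so the genotype values of those genes are given as a description and without a test, whereas Ces1g, Ces2g and Ces3a entered by their names alone and were tested.

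The tissue was the epididymal fat pad (eWAT) of male C57BL/6 mice (C57BL/6J in the study's methods), and its RNA was measured by SAGE, serial analysis of gene expression. A transcript is counted there through 1 short tag at its last NlaIII cutting site, so that tag levels can be set side by side between genes without correction for transcript length. The groups were wildtype mice (WT, n = 6, WT1 to WT6) and mice of genotype Mest+/- with paternal knockout (pKO, n = 5, pKO1 to pKO5). Mest is an imprinted gene transcribed mainly from the allele of the father, and the inactivated allele lacked exon 3 in all tissues after germline deletion with EIIa-cre, so the loss was not limited to fat cells. All mice were 16 weeks old and had eaten a high fat diet since 8 weeks of age. The study selected them from a larger cohort. It reported a significantly higher ratio of fat to lean mass in these WT mice than in the pKO mice. Genotype and adiposity can therefore not be told apart in the comparisons below.

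Libraries held 9659740 to 14825727 tags, and 1 tag was worth 0.836 to 1.19 normalized tags. Mest averaged 25107 normalized tags in WT mice and 1663 in the pKO group, 15.1-fold lower without overlap. Adipocyte markers were abundant and their summed level overlapped between genotypes, from 667082 to 1073170 in WT and from 716936 to 1094090 in pKO mice. Most of this sum was Fabp4, at 471444 to 835899 in WT and 503057 to 938405 in pKO mice, so it says little about the other markers. The pKO libraries resembled each other less than the WT libraries did, with a median correlation to their own group of 0.928 to 0.951 against 0.952 to 0.971. Each pKO library had a higher median correlation with the WT libraries (0.935 to 0.959) than with its own group. Each WT library was closer to its own group. As whole tissue was measured, fewer cells of a type and less RNA per cell cannot be told apart.

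The tags below are shown because each family member is counted through a single site of the transcript. They were read from GENCODE M21 transcripts (GRCm38) as the last CATG, the NlaIII site marked in capitals, with the bases that follow. The total of 27 bases is an assumption about the tag length, and the authors' own assignment of tags to genes was not used here, so these are predicted tags. Ces3b, a close relative of Ces3a that is not analysed here, is added for comparison.
Ces1d: CATGttgagctctgatcaggagggtca
Ces1f: CATGcagatgatgtctactctgtcttc
Ces1g: CATGgcattgtaatgcttatataaagt
Ces2g: CATGtttactctccggttggtggttta
Ces3a: CATGtttcttaaatcatcagcccctac
Ces3b: CATGtttcttaaatcatcggcccctgc
The Ces1d tag lies at chr8:93166243-93166269 on the minus strand and runs across the stop codon in the last of 14 exons. The Ces1f tag lies at chr8:93258276-93258302 on the minus strand, within the coding part of exon 12 of 14 and 484 bases from the transcript end. The Ces1g tag is in the 3′ UTR at chr8:93302408-93302434 on the minus strand. On the plus strand, the tag of Ces2g is in the 3′ UTR at chr8:104969284-104969310 and that of Ces3a in the 3′ UTR at chr8:105058228-105058254. Each of these 5 tags occurred in the transcripts of 1 gene only. The Ces1d tag differed from the nearest tag of any other annotated Ces gene at 14 positions, the tags of Ces1g and Ces2g at 13 positions each. The Ces1f tag differed from a tag of Ces1e at 4 positions, and the tag of Ces3a from that of Ces3b at 2. The mapping settings for such near-identical tags are not given in the sources used here, so the Ces3a count in particular is uncertain.

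The annotation places 20 Ces genes on chromosome 8, 9 in a cluster on the minus strand and 11 in a cluster on the plus strand that starts 11.2 Mb further on. The first cluster holds Ces1d (93166068 to 93197838), Ces1f (93256236 to 93279747) and Ces1g (93302369 to 93337308), and the second Ces2g (104961718 to 104969537) and Ces3a (105048601 to 105058413). The other 15 annotated genes have no values in these data and were not analysed here. Over their coding sequences, Ces1d was 78.5% identical to Ces1f and 81.6% identical to Ces1g. Its identity to Ces2g was 65.0% and to Ces3a 64.8%, so the members that differed most between genotypes were not the closest in sequence.

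Ces1d was by far the most abundant of the 5 measured carboxylesterases and ranked 255th of the 15453 genes by mean level. Ces1f ranked 2645th, Ces2g 6315th, Ces1g 12629th and Ces3a 15093rd. In WT mice this order held without overlap between neighbours: the lowest Ces1d value (3616 normalized tags) exceeded the highest of Ces1f (810), the lowest of Ces1f (273) the highest of Ces2g (185), the lowest of Ces2g (167) the highest of Ces1g (13.1), and the lowest of Ces1g (5.12) the highest of Ces3a (2.89). In pKO mice the ranges of Ces1g and Ces3a overlapped, through pKO4. The measured members together took 0.0408% ± 0.00604 (SD, n = 6) of all tags in WT mice, compared with 0.0856% ± 0.0344 (SD, n = 5) in pKO mice. Ces1d supplied 87.1% ± 2.47 (SD, n = 6) of the family's tags in WT mice, compared with 87.8% ± 3.15 (SD, n = 5) in pKO mice.

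In WT mice, Ces1d had 3786, 3616, 4548, 3938, 5441 and 4634 normalized tags in WT1 to WT6. In pKO1 to pKO5 it had 15473, 5476, 9374, 11091 and 5917. All pKO values lay above all WT values, but pKO2 exceeded WT5 only narrowly, and pKO2 and pKO5 stood near the WT range while pKO1, pKO3 and pKO4 were well above it. WT mice averaged 4327 ± 683 (SD, n = 6) and pKO mice 9466 ± 4100 (SD, n = 5), 2.19 times as much, or 1.03 on the log2(value + 1) scale (SE 0.24). This SE takes no account of the choice of Ces1d through the same contrast. Over all genes, every pKO mouse was above every WT mouse in 0.569% of genes, a share given for orientation, since this contrast led to the choice of Ces1d. Without pKO1, the highest mouse, the log2 difference was 0.83, and without pKO2, the lowest, it was 1.21. The log2 values of Ces1d had an SD of 0.22 among WT mice, close to the median of 0.23 over the 9906 genes that reached a mean of 50 in either genotype, and an SD of 0.63 among pKO mice, against a median of 0.34.

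Ces1f had 273, 524, 492, 291, 810 and 369 normalized tags in WT1 to WT6. The values in pKO1 to pKO5 were 1425, 869, 1074, 837 and 786. WT5 was the one WT mouse inside the pKO range, and 4 of 5 pKO mice were above it. The means were 460 ± 200 (SD, n = 6) and 998 ± 263 (SD, n = 5), which is 2.17-fold higher in pKO mice, or 1.18 on the log2(value + 1) scale (SE 0.26). Here too the SE takes no account of the choice of Ces1f through this contrast. Leaving out each mouse in turn gave log2 differences from 1.05 to 1.37, the latter without WT5. The spread was arranged the other way from that of Ces1d, with a log2 SD of 0.59 in WT and 0.35 in pKO mice. By the ratio of means, Ces1d and Ces1f stood 18th and 19th of the 9906 genes, also as a description. By qRT-PCR the study also reported higher Ces1f in eWAT of pKO mice. That difference was smaller over its whole cohort than in the sequenced mice, and in inguinal fat it was not significant. The ratio of Ces1d to Ces1f tags ranged from 6.71 to 13.9 in the WT and from 6.30 to 13.3 in the pKO group, so single mice within a genotype differed more in this ratio than the genotype means of 10.5 and 9.33 did.

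**Figure D1:**
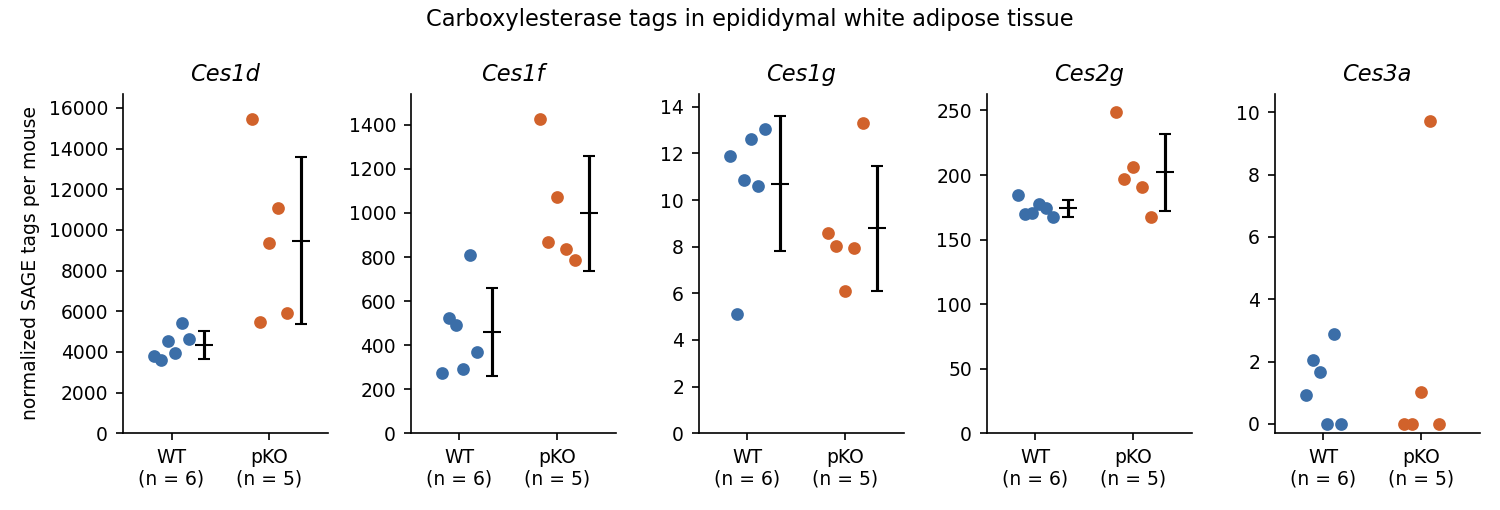
Normalized SAGE tags (vertical axis, a separate linear scale for each gene) of the 5 carboxylesterases in each WT (blue) and pKO (orange) mouse; black bars are the mean ± SD, left out for Ces3a. Ces1d values of pKO mice start at 5476, just above the highest WT value of 5441, and the Ces1f value of WT5 (810) lies among the pKO values.

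Ces2g belongs to the Ces2 subfamily of carboxylesterases. It was the most even member in WT mice, at 185, 170, 171, 178, 175 and 167 normalized tags in WT1 to WT6. The pKO mice had 249, 197, 207, 191 and 168, so that 4 of 5 pKO mice were above the highest WT mouse and pKO5 was at the lower end of the WT range. The means were 174 ± 6.30 (SD, n = 6) and 202 ± 29.8 (SD, n = 5), with a log2 difference of 0.20 (SE 0.13, 95% interval -0.07 to 0.48). In limma over all genes the difference did not pass the test (adjusted p = 0.63, unadjusted p = 0.13). A two-sided exact permutation test over all 462 splits of the mice gave p = 0.026, without adjustment for the number of genes, and the higher mean in pKO mice rested in part on pKO1, without which the log2 difference was 0.13.

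Ces1g, next to Ces1f on the chromosome, was counted with only 5 to 13 tags per library. It averaged 10.7 ± 2.89 (SD, n = 6) normalized tags in the WT group against 8.79 ± 2.69 (SD, n = 5) in the pKO group. Values ran from 5.12 to 13.1 in the WT and from 6.11 to 13.3 in the pKO group, and these ranges overlapped almost entirely. The log2 difference of -0.25 had a 95% interval from -0.86 to 0.37 (limma adjusted p = 0.82, and p = 0.34 in the exact permutation test). The interval holds differences in either direction, so the direction was not resolved at this depth.

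Ces3a was barely detected. WT1 to WT6 held 1, 2, 2, 0, 3 and 0 tags, and pKO1 to pKO5 held 0, 0, 1, 11 and 0. All libraries but pKO4 were thus at or below 3 tags, the limit that a count of 0 allows, which corresponds to 2.51 to 3.56 normalized tags depending on the library and covers counting error only. No fold is given for this reason, and no difference between the genotypes was detectable at this depth (limma adjusted p = 0.98, exact permutation test p = 0.92). In pKO4 the hepatocyte markers other than Alb summed to 70.6 normalized tags, against 2.29 to 9.16 in the other pKO mice and 4.57 to 33.8 in WT mice, and the part of this in the Ces3a value was not tested.

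Of the 3 members that entered by name, only Ces2g could be called, since a call required an adjusted p up to 0.1 together with a mean of 50 or more in either genotype and Ces1g and Ces3a stayed below that mean. Ces2g was not called by limma, which called 0.0324% of all genes at this threshold (5 of 15453, of which 4 were lower and 1 higher in pKO mice). It was also not called on the tag counts by edgeR, which called 5 genes, or by DESeq2, which called 121 (58 higher and 63 lower). Without the requirement on the mean, 0 of the 3 had an unadjusted limma p of at most 0.05, beside 4.2% higher and 5.35% lower of all genes. Of the 4 nearest measured genes that flank the clusters, Gnao1 and Cbfb reached the mean of 50 and neither was called, and Slc6a2 and Rrad were below it. At lower coordinates than the first cluster, Slc6a2, the noradrenaline transporter, averaged 5.91 normalized tags in WT and 5.60 in pKO mice. At higher coordinates, Gnao1, a G protein subunit, had a log2 difference of -0.03 (SE 0.18). Beside the second cluster, Rrad, a small GTPase, had a log2 difference of -0.26 (SE 0.34) and Cbfb, a transcription factor subunit, of 0.08 (SE 0.22). Between Ces1d and Ces1f lies Ces1e, and the gap between them is 58.4 kb, while Ces1f and Ces1g are 22.6 kb apart.

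**Figure D2:**
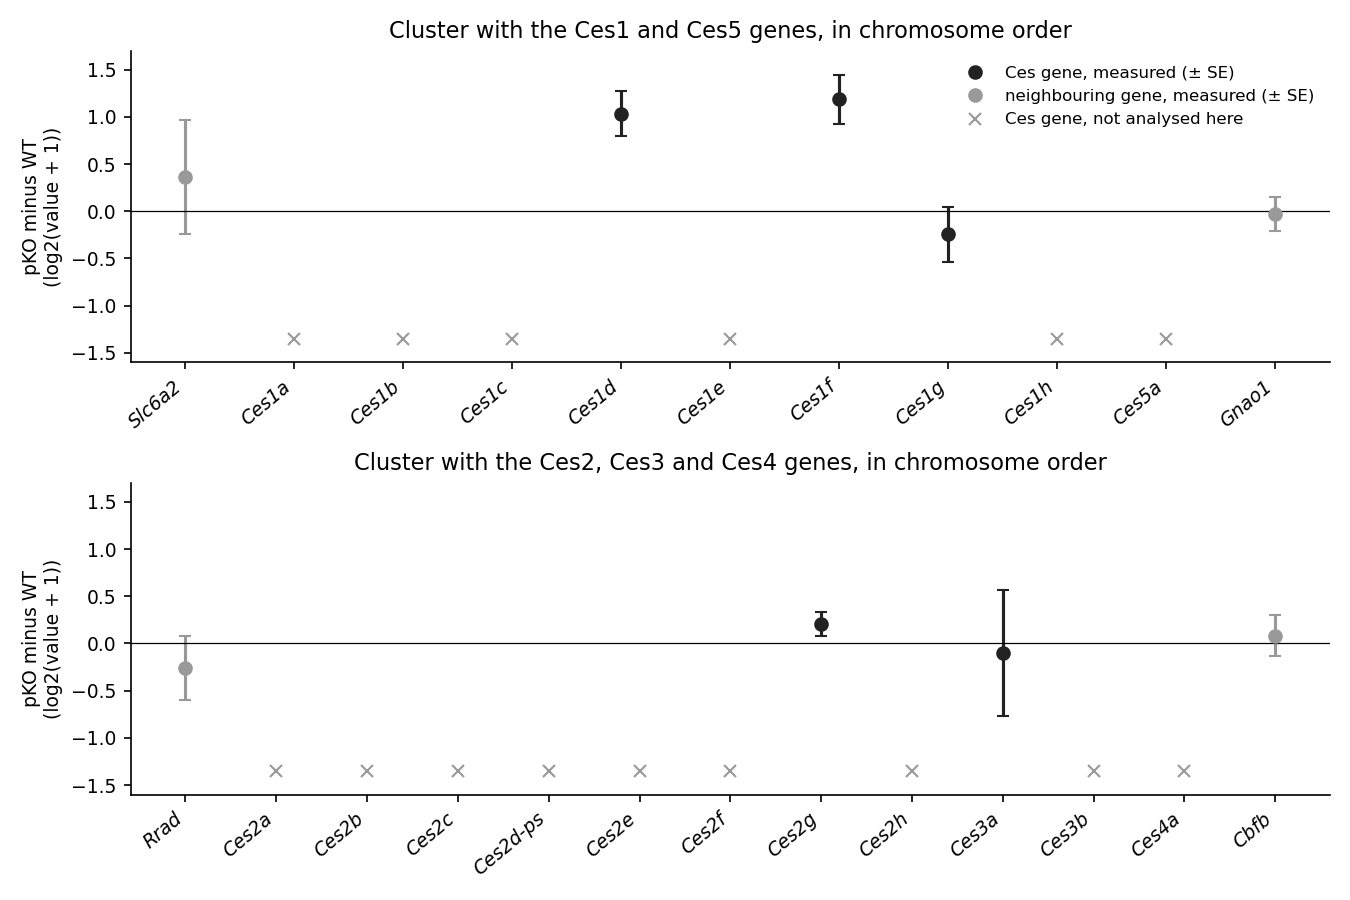
Log2 difference of pKO minus WT mice (vertical axis, log2(value + 1), bars ± SE) for the Ces genes (black) and the nearest measured neighbours (grey), in their order on chromosome 8 but not to scale; crosses mark Ces genes not analysed here. Ces1d (1.03) and Ces1f (1.18) stand above 0, whereas Ces1g, which follows Ces1f, is at -0.25.

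The variation among WT mice was not used in choosing the family, so it was asked whether the members varied together there. Among the 6 WT mice Ces1d and Ces1f had a Pearson r of 0.65 (exact permutation p = 0.18, adjusted p = 0.78 over 5 relations) and a Spearman rho of 0.37 (exact permutation p = 0.50, adjusted p = 0.86). Without WT2 and WT5, the mice farthest from the median of Ces1d, r was 0.86. The value rested on single mice, as r was 0.15 without WT5 and 0.95 without WT2. For the remaining relations of Ces1d, Pearson r was 0.42 with Ces1g (rho 0.26), -0.30 with Ces2g (rho -0.20), 0.26 with Ces3a (rho 0.09) and 0.02 with Mest (rho 0.14). The exact permutation p-values of these 4 relations ran from 0.40 to 0.97 for r and from 0.66 to 0.86 for rho, with adjusted p of at least 0.78. Without the same pair of mice, r was -0.07 with Ces1g, -0.97 with Ces2g, 0.05 with Ces3a and -0.37 with Mest. No relation passed the test, and with 6 mice the relation of Ces1d with Mest within WT was not resolved.

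**Figure D3:**
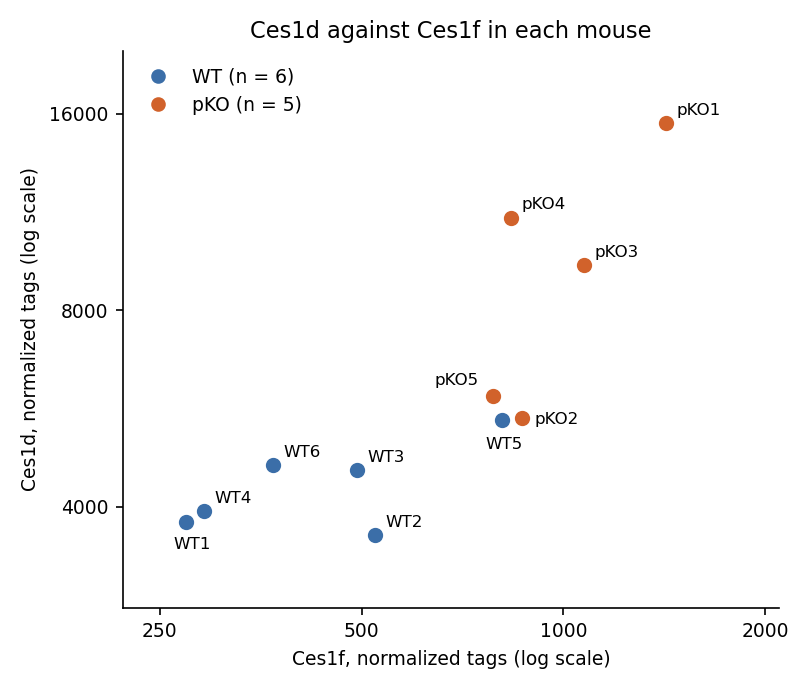
Normalized tags of Ces1d (vertical axis) against Ces1f (horizontal axis), both on log scales, with 1 point per mouse (WT blue, pKO orange). WT5, pKO2 and pKO5 lie side by side between 786 and 869 Ces1f tags, pKO1 is highest in both genes, and WT2 has the lowest Ces1d value (3616) with a Ces1f value of 524.

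To see which genes followed the members from mouse to mouse, log2 values were centred on the genotype mean and correlated over the 11 mice with the same 9906 genes. These correlations are a description, as all genes share the libraries. The 5 genes most like Ces1d were Agt, the precursor of angiotensin peptides (r 0.95), Mesdc2, a chaperone of the endoplasmic reticulum (0.94), Adcy5, an adenylyl cyclase (0.93), Slc16a7, a monocarboxylate transporter (0.91), and Tmem45b, a transmembrane protein (0.91). All 5 stayed among the 50 most similar genes whichever mouse was left out. As these repeats share nearly all mice with the full set, they are no independent check. Agt had 283, 294, 319, 269, 343 and 342 normalized tags in WT1 to WT6, and 525, 274, 363, 467 and 314 in pKO1 to pKO5. Its highest and lowest pKO mice, pKO1 and pKO2, were those of Ces1d. Unlike Ces1d, the genotype ranges of Agt overlapped (log2 difference 0.30, SE 0.17, limma adjusted p = 0.59). Mesdc2 followed the mice closely without a difference in its means, with a WT mean of 3281 ± 177 (SD, n = 6) and a pKO mean of 3331 ± 691 (SD, n = 5).

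The genes most like Ces1f were other ones. They were Trub2, a pseudouridine synthase family member (r 0.93), Abcb10, a transporter of the mitochondrial inner membrane (0.88), Evc2, a protein of the primary cilium (0.87), Fmo1, a flavin-containing monooxygenase that oxidizes drugs (0.87), and 5730403B10Rik (0.86). The first 4 stayed among the 50 most similar genes in all 11 repeats that left out a mouse, and 5730403B10Rik in 10, again without an independent check. Trub2 had 360, 508, 501, 380, 685 and 392 normalized tags in WT1 to WT6, in which WT5 was highest and WT1 lowest, as for Ces1f. In pKO1 to pKO5 it had 647, 620, 680, 591 and 557. Ces1f itself ranked 747th among the 9906 genes in likeness to Ces1d (r 0.54 over the 11 mice). Within the genotypes r was 0.65 in WT and 0.77 in pKO mice. The lists of the 50 genes most like each of them had 2 genes in common, and the number to be had by chance was not computed.

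**Figure D4:**
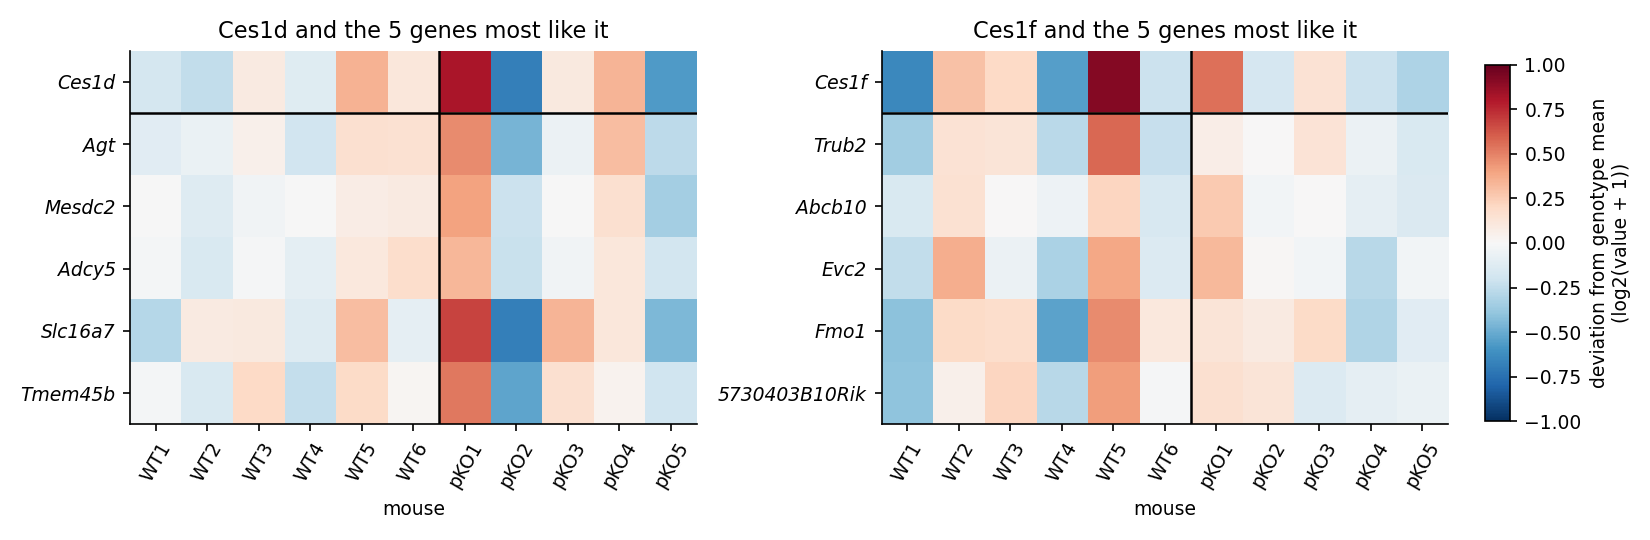
Deviation of each mouse from its genotype mean (colour, log2(value + 1), red above and blue below) for Ces1d and Ces1f (top rows) and the 5 genes most like each, with WT mice left and pKO mice right of the vertical line. The Ces1d pattern is set by pKO1 (0.82) against pKO2 (-0.68) and pKO5 (-0.57), and that of Ces1f by WT5 (0.92) against WT1 (-0.65) and WT4 (-0.55).

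Other ester hydrolases were followed as a list outside the family. Of 26 measured, 0 were called by the same threshold, and 2 were higher and 4 lower in pKO mice at an unadjusted limma p of at most 0.05, beside 4.2% higher and 5.35% lower of all genes. Their median log2 difference was 0.04, against -0.003 over all genes. Pnpla2, adipose triglyceride lipase, which starts triacylglycerol breakdown on lipid droplets, had a WT mean of 15211 ± 2173 normalized tags (SD, n = 6) and a pKO mean of 22446 ± 5023 (SD, n = 5) (log2 difference 0.55, adjusted p = 0.37). Lpl, which releases fatty acids from circulating lipoproteins, was at 52131 and 52429, and Mgll, the monoacylglycerol lipase, at 14471 and 16303. Ephx2, the soluble epoxide hydrolase, had a WT mean of 244 ± 43.6 (SD, n = 6) and a pKO mean of 472 ± 192 (SD, n = 5) (adjusted p = 0.36). Lipf, a lipase known from the stomach, went the opposite way, at 216 ± 54.1 (SD, n = 6) and 100.3 ± 28.5 (SD, n = 5), with an adjusted p of 0.14. Its values ran from 153 to 297 in WT and from 76.7 to 149 in pKO mice.

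Because carboxylesterases also act on drugs, enzymes and regulators of xenobiotic metabolism were listed as well. Of 25 measured, 0 were called, while 6 were higher and 0 lower at an unadjusted p of at most 0.05 (over all genes 4.2% and 5.35%), and the median log2 difference was 0.21. Cyp2e1, a cytochrome P450, had a WT mean of 837 ± 370 (SD, n = 6) and a pKO mean of 1985 ± 562 (SD, n = 5) (log2 difference 1.30, limma adjusted p = 0.19). Gsta3, a glutathione transferase, had 5206 ± 1976 (SD, n = 6) and 10006 ± 1498 (SD, n = 5) (adjusted p = 0.20). Fmo1, also among the genes most like Ces1f, had 180 ± 46.2 (SD, n = 6) and 267 ± 36.0 (SD, n = 5) (log2 difference 0.60, adjusted p = 0.37). These 3 were named as the genes of the list with the smallest p, and the genotype ranges of each overlapped. Por, the electron donor of cytochromes P450, also had 4 of 5 pKO mice above the highest WT mouse, with means of 7397 and 9357 (adjusted p = 0.51). In contrast, Ephx1, the microsomal epoxide hydrolase, averaged 12676 in the WT group against 9675 in the pKO group (adjusted p = 0.62).

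Carboxylesterases are held in the endoplasmic reticulum, and genes for folding and retention in this compartment formed a further list. Of 10 measured, 0 were called, 0 were higher and 2 lower at an unadjusted p of at most 0.05 (over all genes 4.2% and 5.35%), with a median log2 difference of -0.15. Calr, calreticulin, had a WT mean of 998 ± 158 (SD, n = 6) and a pKO mean of 601 ± 157 (SD, n = 5) (adjusted p = 0.27), and Hspa5, the main chaperone of this compartment, 11310 and 10660.

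Markers of other cells were set beside the family, as Ces1d and Ces1f are also made in liver. No marker was called by limma, and the shares of all genes at an unadjusted p of at most 0.05, for comparison with the counts of markers that follow, were 4.2% higher and 5.35% lower. Of the 5 hepatocyte markers, 1 was higher at an unadjusted p of at most 0.05, and the list summed to 193 to 544 normalized tags in the WT and 501 to 1536 in the pKO group, of which nearly all was Alb, serum albumin. Alb had 206, 533, 217, 261, 458 and 184 normalized tags in WT1 to WT6 and 818, 1159, 491, 707 and 1529 in pKO1 to pKO5 (log2 difference 1.61, limma adjusted p = 0.19). Among pKO mice Alb was highest in pKO5 and pKO2, which were the lowest in Ces1d. The other hepatocyte markers were low in most mice, with medians of 10.4 for their sum in WT and 7.16 in pKO mice. Fgb, fibrinogen beta, was at 0 in 4 WT and 3 pKO mice. The sum without Alb was highest in pKO4 (70.6) and, among WT mice, in WT5 (33.8). WT5 was the highest WT mouse in Ces1d and Ces1f. Only pKO1 exceeded pKO4 in Ces1d (11091 normalized tags in pKO4), while pKO4 had 837 of Ces1f. In pKO1, the highest mouse in both genes, the sum was 6.01. Of the 6 mesothelial markers, 3 were higher at an unadjusted p of at most 0.05, and the list summed to 1158 to 1589 in the WT and 1387 to 2683 in the pKO group. Krt19, a keratin of that layer, had a WT mean of 374 ± 81.3 (SD, n = 6) and a pKO mean of 610 ± 77.6 (SD, n = 5) (adjusted p = 0.25). Of the 7 macrophage markers, 2 were lower (sums 3463 to 5036 in WT and 3046 to 4156 in pKO mice), among them Itgax, an integrin of adipose tissue macrophages (adjusted p = 0.44). Of 7 adipocyte markers, 0 passed at an unadjusted p of at most 0.05, whereas 1 of 5 endothelial and 1 of 5 stromal markers were higher. The 2 measured epididymis markers summed to 0 to 54.0 in the WT and 0 to 43.8 in the pKO group. The part of these cell types in the values of Ces1d and Ces1f was not tested.

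**Figure D5:**
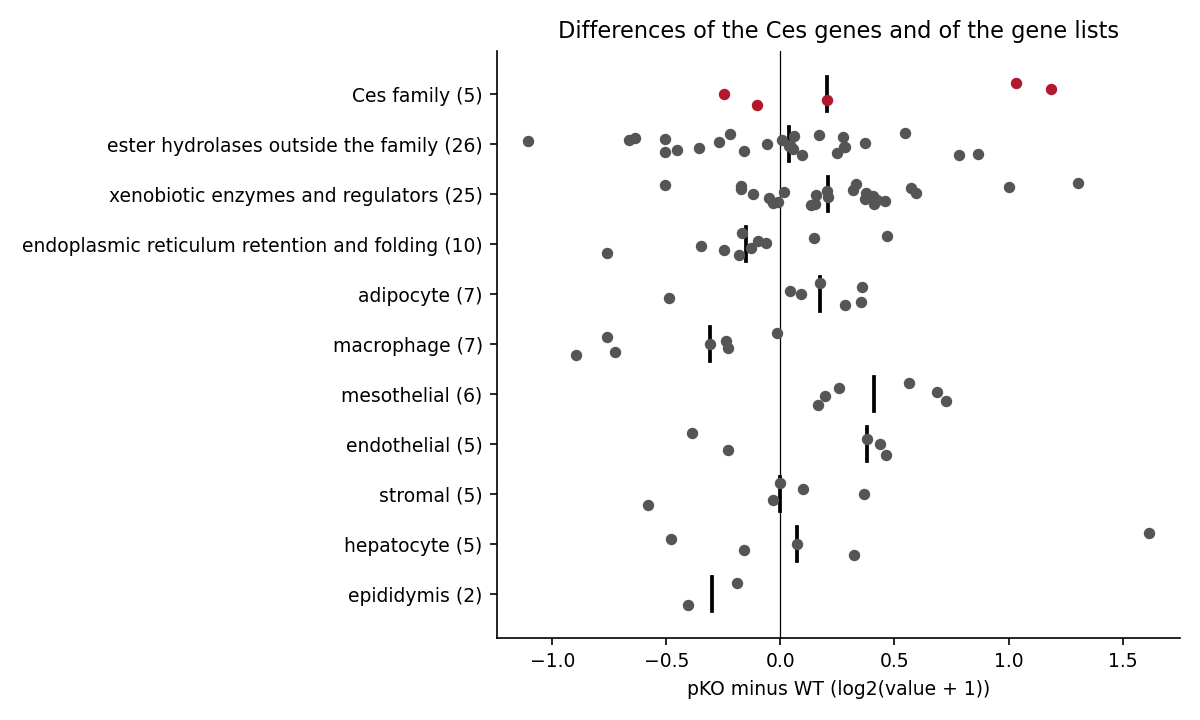
Log2 difference of pKO minus WT mice (horizontal axis, log2(value + 1)) of the 5 Ces genes (red) and of the measured genes of each list (grey, number in brackets), with a vertical bar at each median. Ces1d and Ces1f lie at 1.03 and 1.18, and the remaining members between -0.25 and 0.20.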

How the data were processed

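SAGE libraries of eWAT from 6 WT and 5 pKO mice were sequenced on the SOLiD system, and tags were mapped by the authors with the SOLiD SAGE software in modified form; mm10 and edgeR 3.2.3 stand in the submitters' processing notes. The deposited values are a signal, namely tag counts after scaling of each library by the authors: 100% were whole multiples of the value of 1 tag (within 0.02 tags). The values of all 15453 genes were tested as log2(value + 1) with limma 3.58.1 (mean-variance trend) in R 4.3.3, genotype as the only term, with Benjamini-Hochberg adjustment. The adjusted p-values in the text are from limma unless an exact permutation test is named. The log2(value + 1) scale understates changes of genes with few tags. Calls needed an adjusted p up to 0.1 together with a mean of 50 or more in either genotype. Recovered tag counts entered edgeR 4.0.16 and DESeq2 1.42.0 as alternatives. The scripts were tested on simulated data. Permutation tests were two-sided and exact, over all splits or pairings of the mice. Ranks and the adjustment of the correlation p-values were computed with scipy 1.17.1, and coding sequences were aligned with Biopython 1.88.

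The family members and the gene lists were chosen with earlier results of these data known. Named were all Ces genes in the tables, Mest, the 5 genes most like Ces1d and Ces1f, measured neighbours on the chromosome and, from each list, some of the 3 most abundant genes and the 3 with the smallest p. All libraries differed by more than sampling noise (chi-square per gene at least 18.96 over 55 pairs). No sequencing batch is given.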

Additional observations from a re-analysis of the deposited data

Results flagged for a closer look

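Of 36 groups of values of single genes examined for a mouse far from the others, 2 groups within the family had one, and chance alone gives about 1 in 20. Ces1g in WT mice had 5.12 normalized tags in WT2, which stood apart from the other 5 WT mice at 10.6 to 13.1. This rests on 5 tags. Ces3a in pKO mice had 9.71 normalized tags (11 tags) in pKO4, whereas the others had 0 to 1.02.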

How the results depend on the processing

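Ces2g was called in 0 of the 24 alternatives. Ces1g and Ces3a lie below the mean of 50 that a call needs, and both were absent from the 2 alternatives that filter on low values. Over the alternatives, the log2 difference of Ces1d lay between 0.83 and 1.21, that of Ces1f between 1.05 and 1.37, that of Ces2g between 0.13 and 0.27 (adjusted p from 0.55 to 0.79) and that of Ces1g between -0.42 and -0.14 (adjusted p from 0.72 to 0.94). Ces3a had no stable sign, from -0.73 without pKO4 to 0.78 in DESeq2 (adjusted p of at least 0.69). The number of genes called over all genes was less steady. It was 5 with limma and with edgeR on the recovered tag counts, 121 with DESeq2, 11 among genes with at least 10 tags in every library and 9 among genes with a mean of at least 50. Leaving out single mice gave 3 to 91 genes. The count was 91 without pKO2, 12 without WT5, and 3 without WT1, WT2, WT3, WT4, WT6 or pKO1. With the replicate number as a replicate block, which drops WT6, 1 gene was called. Same-numbered mice did not deviate together (correlations of -0.092 to 0.14, with a mean of -0.024 against 0.0016 for other pairs). The labels do not say what the numbers mean, and these few pairs cannot settle whether they pair the mice. The causes of these shifts were not tested. Depth limits Ces1g and Ces3a, with at most 13 tags in any library.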
